A study of Mus musculus with 40 samples.

Results

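The insulin-like growth factor (IGF) system was followed here as 10 genes: the ligands Igf1 and Igf2, the receptors Igf1r and Igf2r, and the binding proteins Igfbp2, Igfbp3, Igfbp4, Igfbp5, Igfbp6 and Igfbp7. They were taken by name, each as its annotated span plus 5 kb upstream, from 21938 protein-coding genes. H3K27ac, an acetylation of histone H3 found at active promoters and enhancers, had been mapped by ChIP-seq in preadipocytes cultured from the inguinal white adipose tissue (iWAT) of adult C57BL/6 mice. Wild-type (WT) cells were set against Hmgn1-/- Hmgn2-/- cells (DKO), which lack both HMGN1 and HMGN2, chromatin proteins that bind nucleosomes. Each genotype was sampled before induction (day 0) and 3, 6 and 9 days into differentiation toward brown-like adipocytes, with 3 libraries per group and 24 in all. Both genotypes received the same media: 0.5 µg/ml insulin, 5 µM dexamethasone, 0.5 mM IBMX, 1 nM T3 and 1 µM rosiglitazone for 4 days, then insulin and T3 alone for 4 days. Insulin, a ligand related to the IGFs, was thus present in every differentiating culture, and all cells of a culture were measured together, so that fewer cells of a type and less mark per cell cannot be told apart.

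IGF1 and IGF2 are secreted growth factors that act through the receptor tyrosine kinase IGF1R, whose signal promotes growth and the differentiation of preadipocytes. IGF2R carries no kinase and takes IGF2 into the cell for degradation, and the IGF binding proteins hold the ligands in the medium or on the matrix, lengthening their life or keeping them from the receptor. Igf2 and Igf2r are imprinted, being expressed from opposite parental alleles in most mouse tissues.

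H3K27ac marked 7 of the 10 genes in every library, 1 gene in some libraries and 2 genes in none. Of all 21938 protein-coding genes, 11172 held a peak in every library and 15935 in at least 1. Igf1, Igf1r, Igf2r, Igfbp3, Igfbp4, Igfbp6 and Igfbp7 held peaks in 24 of 24 lists. Igfbp5 held them in 11, none of them at day 0, and Igf2 and Igfbp2 were listed with no peak at any day in either genotype. Igfbp2 lies next to Igfbp5 on chromosome 1. With no read counts in the lists, no upper limit can be given for a gene without a peak. The 8 genes with peaks in at least 3 libraries were tested, among 15204 such genes.

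Sequences are shown for promoters and regions of marked and unmarked genes, all from GRCm38 (the mm10 build). The first pair is the 250 bases upstream of the RefSeq start of Igfbp3 at chr11:7213924-7214173 and of Igfbp2 at chr1:72824230-72824479, each on its gene's strand with CpG dinucleotides in capitals. A peak overlapped the Igfbp3 promoter, counted with 50 bases after the start, in 5 libraries, none of them at day 0, and the Igfbp2 promoter in none.
Igfbp3 promoter: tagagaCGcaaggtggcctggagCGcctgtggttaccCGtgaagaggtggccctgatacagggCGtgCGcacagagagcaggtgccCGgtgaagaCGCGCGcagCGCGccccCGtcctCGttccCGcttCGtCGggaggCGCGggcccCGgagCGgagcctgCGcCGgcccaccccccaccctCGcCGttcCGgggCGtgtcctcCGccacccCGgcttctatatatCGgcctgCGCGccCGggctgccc
Igfbp2 promoter: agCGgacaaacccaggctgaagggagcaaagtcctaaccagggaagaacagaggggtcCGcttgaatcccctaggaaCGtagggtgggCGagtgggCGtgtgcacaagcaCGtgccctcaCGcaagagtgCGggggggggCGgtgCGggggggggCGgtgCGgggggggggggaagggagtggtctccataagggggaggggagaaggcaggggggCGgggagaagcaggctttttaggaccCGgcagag
The Igfbp3 sequence held 32 CpGs and the Igfbp2 sequence 14.

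All 10 genes matched a RefSeq promoter (250 bases before to 50 after a start), and the CpG number of the promoter did not sort the genes with a peak there from those without. The promoters of Igf1 (6 CpGs) and Igfbp6 (8 CpGs) lay under a peak in 24 and 23 libraries. The Igfbp4 promoter (27 CpGs) was covered in 24 and that of Igf1r (48 CpGs) in 22. The 4 RefSeq promoters of Igf2 held 2 to 24 CpGs and had no peak in any library. The median over 32851 promoters was 7 CpGs. These are descriptions of letters and peaks, with no test.

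The peaks of the 24 lists joined into 183 regions at the 8 marked genes, of which 16 were called in all 24 libraries and 58 in a single library. Of all 169358 regions of the series, 15375 were called in all 24 libraries and 58163 in a single library. Most regions of Igf1, Igf1r, Igf2r and Igfbp7 were classed as intronic, and no region of Igfbp3 or Igfbp4 was. The sequences of 4 regions are given as 300 bases around the summit on the plus strand, chosen as an intronic Igf1 region called in every library (chr10:87901549-87901848), the 2 regions with the lowest p for genotype (Igf1r, chr7:68017477-68017776, and Igfbp7, chr5:77369227-77369526), and the region of the Igf2r window over the start of the antisense RNA Airn (chr17:12741350-12741649, which begins just inside Airn). Capitals mark CpGs.
Igf1 intron, 24 libraries: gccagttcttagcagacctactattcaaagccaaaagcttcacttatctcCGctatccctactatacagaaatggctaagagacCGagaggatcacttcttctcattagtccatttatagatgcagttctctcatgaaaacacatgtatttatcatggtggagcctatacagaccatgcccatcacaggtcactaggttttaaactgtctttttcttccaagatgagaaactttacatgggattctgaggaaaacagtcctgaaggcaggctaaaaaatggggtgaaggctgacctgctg
Igf1r intron: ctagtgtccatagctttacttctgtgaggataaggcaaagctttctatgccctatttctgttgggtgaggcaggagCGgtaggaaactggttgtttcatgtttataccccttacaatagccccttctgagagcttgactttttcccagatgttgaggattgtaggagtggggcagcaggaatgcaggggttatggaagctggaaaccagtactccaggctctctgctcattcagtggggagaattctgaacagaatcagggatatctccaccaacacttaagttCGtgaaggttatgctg
Igfbp7 intron: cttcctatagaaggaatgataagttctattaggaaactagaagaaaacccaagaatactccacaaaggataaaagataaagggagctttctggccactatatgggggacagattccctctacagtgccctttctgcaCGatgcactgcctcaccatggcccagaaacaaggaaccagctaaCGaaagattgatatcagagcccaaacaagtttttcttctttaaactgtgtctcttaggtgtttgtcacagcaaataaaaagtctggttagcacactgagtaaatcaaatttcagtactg
Airn in the Igf2r window: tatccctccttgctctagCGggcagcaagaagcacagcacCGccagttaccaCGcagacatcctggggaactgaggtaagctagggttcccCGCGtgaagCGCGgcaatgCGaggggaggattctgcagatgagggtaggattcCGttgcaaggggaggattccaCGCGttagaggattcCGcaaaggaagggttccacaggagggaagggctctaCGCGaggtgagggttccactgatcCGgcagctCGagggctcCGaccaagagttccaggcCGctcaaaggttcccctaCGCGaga
The Airn window held 20 CpGs in 300 bases and the intronic windows of Igf1, Igf1r and Igfbp7 held 2 each. Airn is the long non-coding RNA that silences Igf2r in cis on the paternal allele, and its annotated start lay inside a region called in 24 of 24 libraries (chr17:12739165-12743002). Peaks carry no allele, and those at Airn were counted with Igf2r because the genes overlap.

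Motif words were counted in these windows of 300 bases on both strands. The AP-1 word TGACTCA or TGAGTCA was in 11 of 183 windows of the IGF genes (6.01%), beside 5.82% of all 169358 regions. The core of the glucocorticoid receptor palindrome, ACANNNTGT, was in 18 windows (9.84%), beside 9.60%. The C/EBP palindrome TTGCGCAA and the direct repeat of AGGTCA spaced by 1 base were in 0 windows, beside 0.0407% and 0.0679% of all regions. Of the 28 windows called in at least 20 libraries, 0 held the AP-1 word and 2 the receptor core. The share over all regions called in that many libraries was not computed, so these counts are not read as particular to the IGF genes. The AP-1 word and the receptor core can share end bases, and the shares of the IGF genes lay near those of all regions. Over all 32851 RefSeq promoters the shares were 5.20%, 6.85%, 0.183% and 0.0396%. The AP-1 word was in 1 of 14 RefSeq promoters of the IGF genes, a second promoter of Igfbp2.

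The libraries differed in the extent of their peaks, which bears on every value below. They held 47448 to 115923 peaks. DKO day 0 replicate 2 had a median peak width of 1076 bp, against 313 to 376 bp in the other 23 libraries. WT day 3 replicate 3 had fewer peaks (68629) than the other WT libraries, and DKO day 6 replicate 3 the fewest of all. At day 6 the WT lists covered 55.5 to 60.4 Mb of genome and the DKO lists 20.7 to 36.3 Mb. Hmgn2 carried a peak in 12 of 12 WT and in 0 of 12 DKO libraries, while Hmgn1 carried one in all 24. Of the adipocyte markers, Adipoq and Cidec had no peak at day 0 in either genotype, while Fabp4, Plin1, Lpl and Pparg were marked. The mean length of these under peaks at day 0 was 1.29, 0.491, 4.46 and 2.82 kb in WT and 2.56, 0.491, 6.78 and 5.39 kb in DKO. The epithelial genes Krt5, Krt14 and Epcam and the brown marker Ucp1 had no peak in any library.

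The measure used first is the length of a gene's window under peaks, in kb. Per length of window, the median library covered 36.2% of Igfbp6, 34.1% of Igfbp4, 18.9% of Igfbp7, 17.4% of Igfbp3, 13.5% of Igf1, 9.39% of Igf2r and 7.45% of Igf1r. The second is the q rank, the percentile of a gene's strongest peak among the −log10 q values of all peaks of its own list, which is 0 where the gene has no peak. Over the 24 libraries the median q rank was 96.4 for Igf1, 94.0 for Igfbp4, 91.1 for Igf1r, 90.3 for Igfbp7, 86.7 for Igf2r, 85.7 for Igfbp6 and 66.9 for Igfbp3. Igf1 and Igfbp4 thus carried peaks near the top of their lists.

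**Figure D1:**
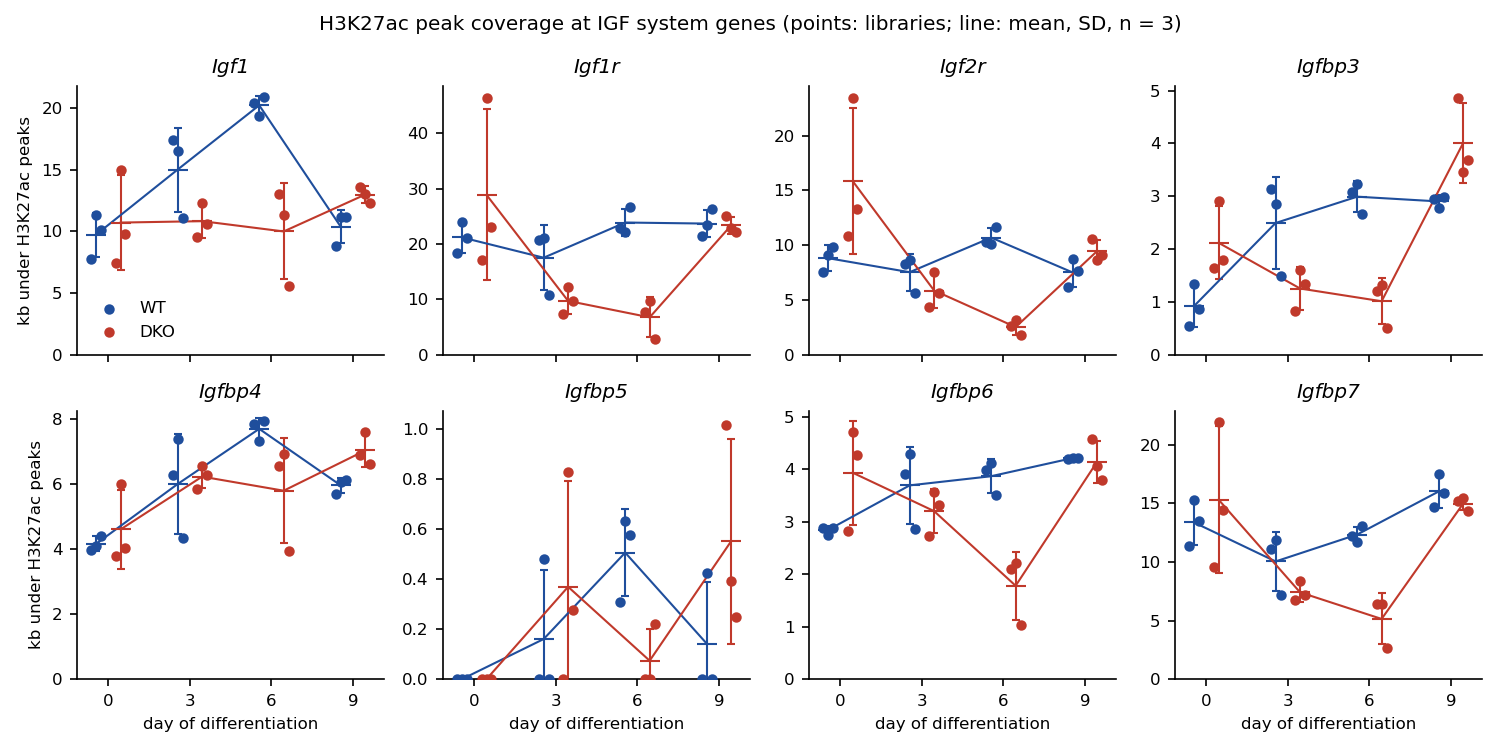
Kb under H3K27ac peaks (vertical axes, different scales) against day for the 8 IGF genes with peaks, WT in blue and DKO in red. Points are libraries, lines join means of 3 libraries and bars are SDs, which the axis ends at 0. At day 6 the WT points lie above the DKO points in all 8 panels, and at day 9 the groups are close or the DKO points are higher.

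Igf1 (ENSMUSG00000020053.18, chr10:87858265-87937042, plus strand), the ligand marked in every library, had its highest WT values at day 6, while its DKO means were 13.0 kb at most. These courses over the days are values, and none of the changes of Igf1 between days passed the exact test. For Igf1, WT libraries covered 7.79, 11.3 and 10.1 kb on day 0, then 17.5, 16.5 and 11.1 on day 3, 20.4, 19.4 and 20.9 on day 6 and 8.84, 11.1 and 11.2 on day 9. Igf1 in DKO covered 7.40, 14.97 and 9.79 kb on day 0, then 9.55, 12.3 and 10.6 on day 3, 13.0, 11.3 and 5.61 on day 6 and 13.6, 13.0 and 12.3 on day 9. The genotypes overlapped on days 0 and 3, WT lay above DKO on day 6, and DKO lay above WT on day 9. Within 1 kb of its annotated starts, Igf1 at day 6 held 4.27 ± 0.0668 kb in WT, against 3.20 ± 0.631 kb in DKO (SD, n = 3). Elsewhere in the gene it held 15.1 to 16.7 kb in WT, against 3.02 to 9.89 kb in DKO, so that most of the gap lay away from the starts.

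**Figure D2:**
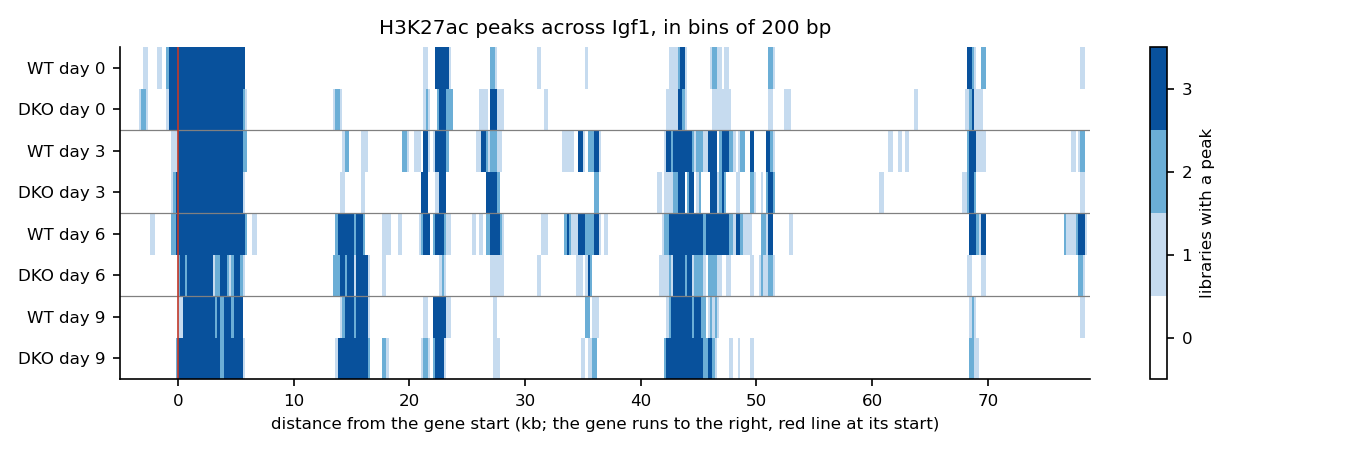
Number of libraries (0 to 3, colour) with a peak in each 200 bp of the Igf1 window, by distance from the gene start in kb (horizontal axis), with a row for each genotype and day. The start is covered in every group, a block near 15 kb is in all libraries from day 6 in both genotypes, and WT at day 6 has the most bins with 3 libraries.

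The Igf1 map showed regions called on some days and not on others, which were not tested by day. An intronic region at chr10:87873713-87874740, called in 7 WT and 7 DKO libraries, was in 0 of 3 libraries of each genotype at day 0, in 1 of 3 at day 3 and in 3 of 3 at days 6 and 9. Regions seen in all 3 WT and in no DKO library of day 6 were chr10:87879120-87879994, chr10:87891804-87892214 and chr10:87906514-87907468, all intronic. The first of them was called in 3 of 3 DKO libraries at day 3. At chr10:87892824-87893410 the contrast was at day 3 (3 of 3 WT, 0 of 3 DKO).

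Igf2 (ENSMUSG00000048583.16, chr7:142650766-142666816, minus strand), the other ligand, had no peak in its window in any list. Its window also holds the overlapping gene Gm49394, the microRNA gene Mir483 and the antisense gene Igf2os, so that no peak fell on these parts either.

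Igf1r (ENSMUSG00000005533.10, chr7:67952827-68233668, plus strand), the signalling receptor, had its lowest DKO values at days 3 and 6, while the genotypes overlapped at day 9. For Igf1r, WT libraries covered 18.4, 23.97 and 21.1 kb on day 0, then 20.6, 21.2 and 10.7 on day 3, 22.8, 22.2 and 26.6 on day 6 and 21.4, 23.3 and 26.3 on day 9. Igf1r in DKO covered 17.1, 46.4 and 23.1 kb on day 0, then 7.29, 12.2 and 9.60 on day 3, 7.73, 9.73 and 2.72 on day 6 and 25.1, 22.8 and 22.2 on day 9. The 46.4 kb belonged to the library with wide peaks, and day 6 was the only day without overlap. Near the starts the day 6 coverage was 1.49 ± 0.306 kb in DKO, against 2.52 ± 0.202 kb in WT (SD, n = 3). The rest of the gene held 5.24 ± 3.31 kb, against 21.3 ± 2.24 kb.

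**Figure D3:**
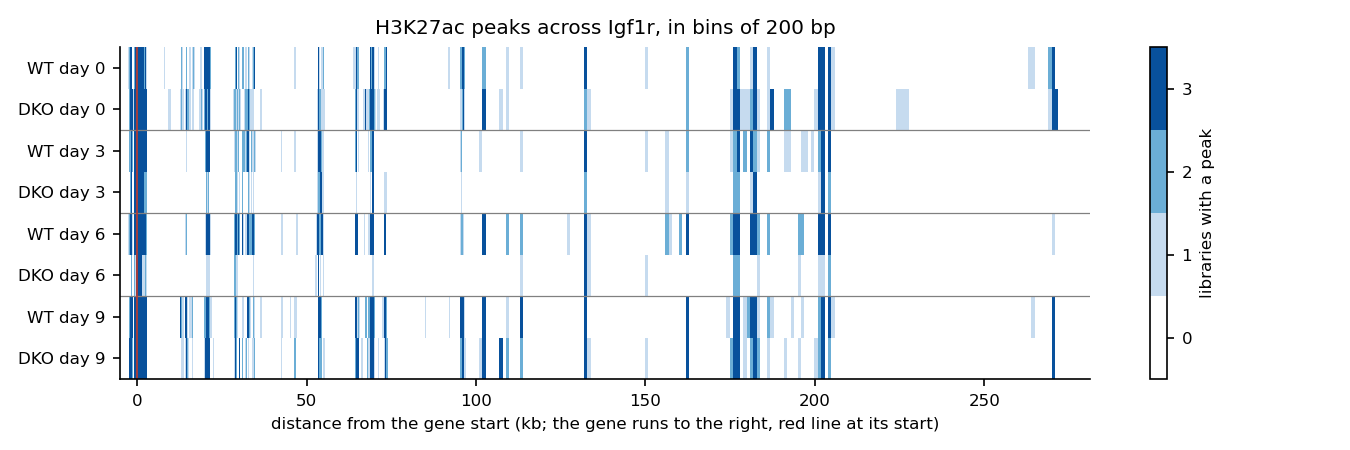
Number of libraries (0 to 3, colour) with a peak in each 200 bp of the Igf1r window, by distance from the gene start in kb (horizontal axis), with a row for each genotype and day. The DKO row at day 6 is blank or pale at most intronic positions where WT has 3 libraries, while the start and a few intronic positions are marked in 3 libraries.

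Of 83 Igf1r regions, 5 had a peak in every WT library of day 6 and in no DKO library, beside 4.55% of all regions. One was chr7:68017162-68018440, called in 12 WT libraries, and in DKO in 3 libraries of day 0, 1 of day 3, 0 of day 6 and 3 of day 9. Another was chr7:68025565-68026790, which was present in all 3 DKO libraries of day 9. The reverse held at day 9 for 2 Igf1r regions, chr7:68060044-68060417 and chr7:68148049-68149121, beside 1.46% of all regions.

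Igf2r (ENSMUSG00000023830.14, chr17:12682406-12769664, minus strand), the receptor that clears IGF2, had the widest percent difference between genotypes of the 7 genes at day 6. For Igf2r, WT libraries covered 7.50, 9.11 and 9.79 kb on day 0, then 8.31, 8.66 and 5.58 on day 3, 10.2, 10.1 and 11.7 on day 6 and 6.13, 8.69 and 7.65 on day 9. Igf2r in DKO covered 10.8, 23.4 and 13.3 kb on day 0, then 4.36, 7.57 and 5.61 on day 3, 2.62, 3.15 and 1.75 on day 6 and 10.6, 8.66 and 9.13 on day 9. DKO lay above WT on day 0 and below it on day 6, with overlap on the other days. The Igf2r promoter lay under a peak in 3, 2, 3 and 3 WT libraries on the 4 days in order, against 1, 1, 1 and 2 DKO libraries, a count that was not tested.

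Igfbp3 (ENSMUSG00000020427.11, chr11:7206086-7213923, minus strand), the main carrier of IGFs in blood, was covered least in WT at day 0. For Igfbp3, WT libraries covered 0.550, 1.34 and 0.866 kb on day 0, then 3.13, 2.85 and 1.49 on day 3, 3.07, 3.23 and 2.66 on day 6 and 2.95, 2.77 and 2.98 on day 9. Igfbp3 in DKO covered 1.64, 2.91 and 1.80 kb on day 0, then 0.816, 1.61 and 1.33 on day 3, 1.20, 1.32 and 0.510 on day 6 and 4.87, 3.47 and 3.69 on day 9. DKO lay above WT on days 0 and 9 and below it on day 6. Its promoter, printed above, was under a peak in every DKO library of day 9 and in no WT library of that day, as were 0.384% of 32851 RefSeq promoters. Both genotypes had a peak beside it: the region at chr11:7214089-7214832, which reaches into the promoter's upstream end, was called in 3 of 3 libraries of each genotype at day 9, and that at chr11:7210641-7213610 in all 24.

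Igfbp4 (ENSMUSG00000017493.12, chr11:99041244-99054392, plus strand), which binds IGFs and is cut by the protease PAPP-A, held its mark close to the start. For Igfbp4, WT libraries covered 3.97, 4.09 and 4.41 kb on day 0, then 6.27, 7.39 and 4.34 on day 3, 7.85, 7.32 and 7.93 on day 6 and 5.68, 6.08 and 6.11 on day 9. Igfbp4 in DKO covered 3.79, 5.99 and 4.03 kb on day 0, then 5.86, 6.56 and 6.27 on day 3, 6.54, 6.91 and 3.93 on day 6 and 6.90, 7.59 and 6.61 on day 9. Igfbp4 had 2 regions, called in 24 and 21 libraries, and at day 6 it held 6.56 ± 0.128 kb in WT, against 5.08 ± 1.47 kb in DKO, within 1 kb of its starts (SD, n = 3). WT lay above DKO on day 6, DKO lay above WT on day 9, and the genotypes overlapped on the other days.

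Igfbp5 (ENSMUSG00000026185.8, chr1:72857932-72874884, minus strand), a binding protein that attaches to the matrix, was the sparsest of the marked genes, and its neighbour Igfbp2 (ENSMUSG00000039323.18, chr1:72824503-72852474, plus strand) had no peak. It was covered in 0 of 6 libraries at day 0, in 1 WT and 2 DKO libraries at day 3, in 3 WT and 1 DKO library at day 6 and in 1 WT and 3 DKO libraries at day 9. On day 6 the WT libraries held 0.309, 0.632 and 0.579 kb, against 0, 0 and 0.221 kb in DKO, without overlap.

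Igfbp6 (ENSMUSG00000023046.6, chr15:102144362-102149511, plus strand), a binding protein that prefers IGF2, had its lowest values in DKO at day 6. For Igfbp6, WT libraries covered 2.89, 2.75 and 2.89 kb on day 0, then 3.92, 4.29 and 2.87 on day 3, 3.98, 4.12 and 3.51 on day 6 and 4.20, 4.22 and 4.21 on day 9. Igfbp6 in DKO covered 2.82, 4.71 and 4.27 kb on day 0, then 2.73, 3.56 and 3.31 on day 3, 2.10, 2.21 and 1.03 on day 6 and 4.58, 4.07 and 3.79 on day 9. WT lay above DKO on day 6 alone, and on the other days the genotypes overlapped.

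Igfbp7 (ENSMUSG00000036256.13, chr5:77349240-77408041, minus strand), which binds IGFs weakly and sits in the matrix, had its lowest values in DKO at day 6. For Igfbp7, WT libraries covered 11.4, 15.3 and 13.5 kb on day 0, then 11.1, 11.9 and 7.17 on day 3, 12.2, 11.7 and 13.1 on day 6 and 14.7, 17.5 and 15.9 on day 9. Igfbp7 in DKO covered 9.55, 22.0 and 14.5 kb on day 0, then 6.73, 8.34 and 7.15 on day 3, 6.40, 6.38 and 2.62 on day 6 and 15.2, 15.4 and 14.3 on day 9. WT lay above DKO on day 6, with overlap on days 0, 3 and 9. Its window also holds the end of Polr2b and the antisense gene Gm34648.

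The first comparison asked whether loss of HMGNs changed the coverage of these genes over the 4 days together. No IGF gene passed. By the stratified exact permutation test over libraries, with Benjamini-Hochberg adjustment over 15204 genes, adjusted p ran from 0.578 (Igf1, −2.71 kb, DKO minus WT) to 1.00 (Igf2r, −0.208 kb, and Igfbp4, −0.0388 kb). The small differences of Igf2r and Igfbp4 turned positive among peaks with −log10 q of at least 5. Of all genes, 0.125% were lower in DKO and 0.0263% higher. At an unadjusted p under 0.05 the test counted 0 IGF genes and 898 lower and 601 higher genes of all. By limma on log2(kb + 0.5), 1 IGF gene passed: Igf1r was lower by a log2 difference of −0.60 ± 0.178 (SE), adjusted p = 0.0464, beside 5.36% of all genes lower by limma and 1.20% higher. Where replicates came from separate animals is not given in the sources used here, and p measures the spread between libraries.

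Day by day the genotypes parted most at day 6. With 3 libraries against 3 an exact test cannot go below p = 0.1, so these are counts of genes whose libraries do not overlap. At day 6 DKO lay below WT in 8 of 8 IGF genes tested, beside 59.6% of all genes, and above in 0, beside 0.0855%. At day 0 DKO lay above WT in 2 (Igf2r and Igfbp3), beside 18.4%, and below in 0, beside 0.704%. At day 3 it lay below in 0, beside 10.8%, and above in 0, beside 0.862%. That count rested on WT day 3 replicate 3, without which DKO lay below WT in 6 IGF genes, beside 51.6% of all genes. At day 9 it lay above in 3 (Igf1, Igfbp3 and Igfbp4), beside 29.3%, and below in 0, beside 2.08%. By limma, 7 of 8 IGF genes were lower in DKO at day 6, beside 39.9% of all genes, and 0 higher, beside 0.0921%.

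The limma log2 difference at day 6 (DKO minus WT) was −1.92 ± 0.245 (SE) for Igf2r (adjusted p = 2.37e-05), −1.91 ± 0.355 for Igf1r (adjusted p = 0.000522) and −1.25 ± 0.258 for Igfbp3 (adjusted p = 0.00110). It was −1.28 for Igfbp7 and −1.06 for Igf1 (adjusted p = 0.00139 and 0.00359 by limma). It was −0.98 for Igfbp6 (adjusted p = 0.000795 by limma), −0.82 for Igfbp5, which rests on the added 0.5 kb (adjusted p = 0.0486 by limma), and −0.42 for Igfbp4, which did not pass (adjusted p = 0.0817 by limma). Without DKO day 6 replicate 3, 6 of 8 passed, beside 17.0% of all genes lower, and Igfbp5 did not (adjusted p = 0.0621 by limma). Without all libraries numbered 3, 3 of 8 passed, beside 6.32%, and among the 20000 highest-ranked peaks of each list 1 of the 7 genes still tested did, beside 4.79%.

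The DKO lists at day 6 covered less genome in all, so the kb of each gene were also divided by the Mb that the library's peaks cover. On this scale 4 IGF genes lay below WT without overlap at day 6, beside 14.4% of all genes, and 1 above, beside 37.7%. Igf2r was 0.182, 0.182 and 0.193 kb per Mb in WT and 0.0740, 0.0868 and 0.0845 in DKO. Igf1r was 0.404, 0.400 and 0.440 in WT and 0.218, 0.268 and 0.131 in DKO, and Igfbp3 and Igfbp7 were also below. Igfbp4 turned direction, with 0.139, 0.132 and 0.131 in WT and 0.185, 0.190 and 0.190 in DKO. Igf1, with 0.362, 0.349 and 0.347 in WT and 0.369, 0.313 and 0.271 in DKO, overlapped.

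At the other days the per-Mb scale changed the counts as well. At day 0 DKO was below WT in 1 IGF gene (Igf1), beside 10.7% of all genes, and above in 2 (Igf2r and Igfbp3), beside 10.9%. At day 3 it was below in 2 (Igf1r and Igfbp3), beside 7.72%, and above in 1 (Igfbp4), beside 12.3%. At day 9 it was below in 3 (Igf1r, Igfbp6 and Igfbp7), beside 13.4%, and above in 1 (Igf1), beside 13.5%. Igf2r and Igfbp3 at day 0 and Igf1 at day 9 kept the direction of the kb scale, and Igfbp3 and Igfbp4 at day 9 overlapped per Mb.

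**Figure D4:**
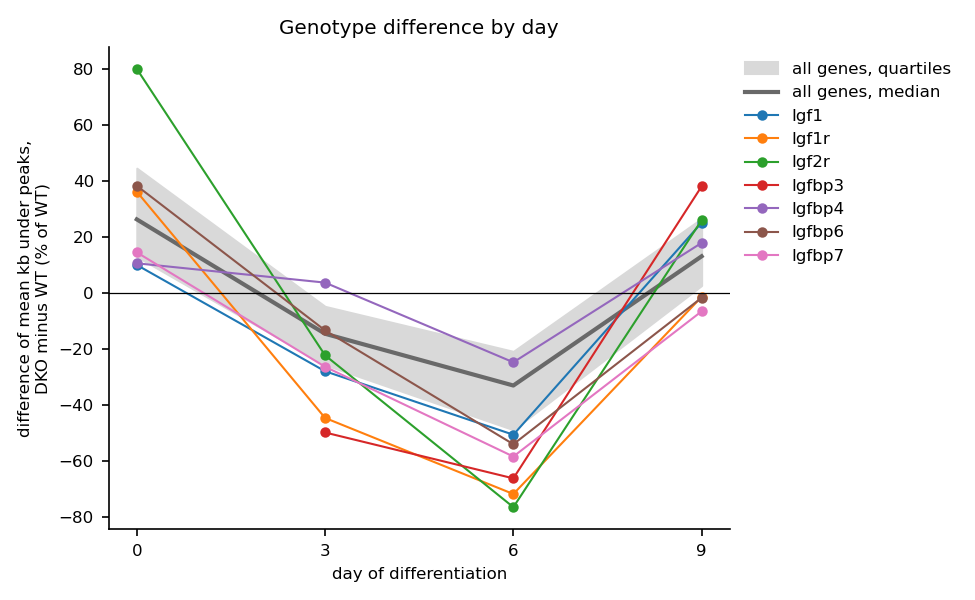
Difference of the mean kb under peaks, DKO minus WT in percent of WT (vertical axis), against day, for IGF genes with a WT mean of at least 1 kb (coloured lines), with the median (grey line) and quartiles (grey band) of all genes above that level. At day 6 the coloured lines run from −76.5% (Igf2r) to −24.7% (Igfbp4), and the median of all genes is −33.0%.

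In percent of the WT mean, Igf2r was at −76.5%, Igf1r at −71.8%, Igfbp3 at −66.2%, Igfbp7 at −58.4%, Igfbp6 at −54.0%, Igf1 at −50.6% and Igfbp4 at −24.7% at day 6, beside a median of −33.0% and quartiles of −48.8% and −20.8% over 10797 genes. Of these genes, 4.83% had a lower value than Igf2r and 67.0% a lower value than Igfbp4. At day 0 Igf2r was at 80.2%, above 93.2% of genes, and at 37.1%, above 92.4% of genes, without DKO day 0 replicate 2, the library with wide peaks. At day 9 Igfbp3 was at 38.2% and Igfbp7 at −6.48%, with a median of 13.2% over all genes.

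Whether the genotype difference changed with the day was tested with the genotype by day term of limma. It passed for 6 of 8 IGF genes, beside 36.7% of all genes. By limma, adjusted p was 0.000437 for Igf2r, 0.00205 for Igfbp3, 0.00801 for Igfbp6, 0.0108 for Igf1r, 0.0242 for Igf1 and 0.0302 for Igfbp7. It was 0.0512 for Igfbp5 and 0.172 for Igfbp4, which did not pass. Without DKO day 6 replicate 3, 4 of 8 passed, beside 19.4% of all genes, with Igf1 at 0.0540 and Igfbp7 at 0.0889 by limma adjusted p. Without DKO day 0 replicate 2, 6 of 8 passed, beside 36.9%. With the 20000 highest-ranked peaks of each list, 0 of the 7 genes tested did, beside 4.49%.

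Coverage over differentiation was compared next, with the genotypes as strata. Between day 0 and day 9, 2 of 8 IGF genes rose, beside 16.4% of all genes, and 0 fell, beside 14.8%. Igfbp3 rose by 1.94 kb and Igfbp4 by 2.11 kb (both adjusted p = 0.0203, exact permutation test), the smallest value being set by 400 relabellings. Igf2r was at −3.86 kb (adjusted p = 0.0585). By limma, Igfbp5 also rose (log2 difference 0.65 ± 0.229, adjusted p = 0.0276), from no peak at day 0, so that limma called 3 of 8 higher, beside 21.7% of all genes, and 0 lower, beside 16.7%. Within the 20000 highest-ranked peaks the rises were 0.496 and 1.05 kb for Igfbp3 and Igfbp4 and did not pass (adjusted p = 0.834 and 0.325), while Igf2r fell by 3.99 kb (adjusted p = 0.0468, all exact permutation tests). On that setting the Igf2r mean at day 0 was 1.53 kb in WT and 7.30 kb in DKO, a group that holds the library with wide peaks. The fall on that setting was not computed without this library.

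From day 0 to day 3, Igfbp7 fell by 5.62 kb (adjusted p = 0.0379, exact permutation test), the only IGF gene of 8 to do so by this test, beside 25.2% of all genes, and 0 rose, beside 1.18%. Without WT day 3 replicate 3 it was not called. By limma, Igf1r, Igf2r and Igfbp7 fell (log2 differences of −0.88, −0.78 and −0.67, with SEs of 0.251, 0.173 and 0.192, adjusted p = 0.00727, 0.00104 and 0.00693) and Igfbp4 rose (0.44 ± 0.134, adjusted p = 0.0114). By limma 43.1% of all genes were lower at this step and 3.48% higher. For Igf1r, Igf2r and Igfbp7 the highest day 0 value was that of DKO day 0 replicate 2, the library with wide peaks (46.4, 23.4 and 22.0 kb). Their lowest WT value of day 3 was that of WT day 3 replicate 3 (10.7, 5.58 and 7.17 kb). The limma calls of this step are not given here without either library.

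For the later steps the exact test called no gene in either direction, IGF or other: 0% lower and 0% higher from day 3 to day 6 and from day 6 to day 9. At an unadjusted p under 0.05 it counted 866 genes lower and 2919 higher from day 3 to day 6, and 41 lower and 4670 higher from day 6 to day 9, where 2 IGF genes were higher, beside 30.7% of all genes. Those were Igfbp6 (1.35 kb) and Igfbp7 (6.76 kb), each with adjusted p = 0.0519. By limma 5.91% of all genes were lower and 12.7% higher at the first of these steps, with 0 IGF genes in either direction. At the second, 0.434% of all genes were lower by limma, with 0 IGF genes, and 33.3% higher, with 5. The 5 were Igf1r, Igf2r, Igfbp3, Igfbp6 and Igfbp7, with log2 differences of 0.93, 0.63, 0.79, 0.59 and 0.95.

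**Figure D5:**
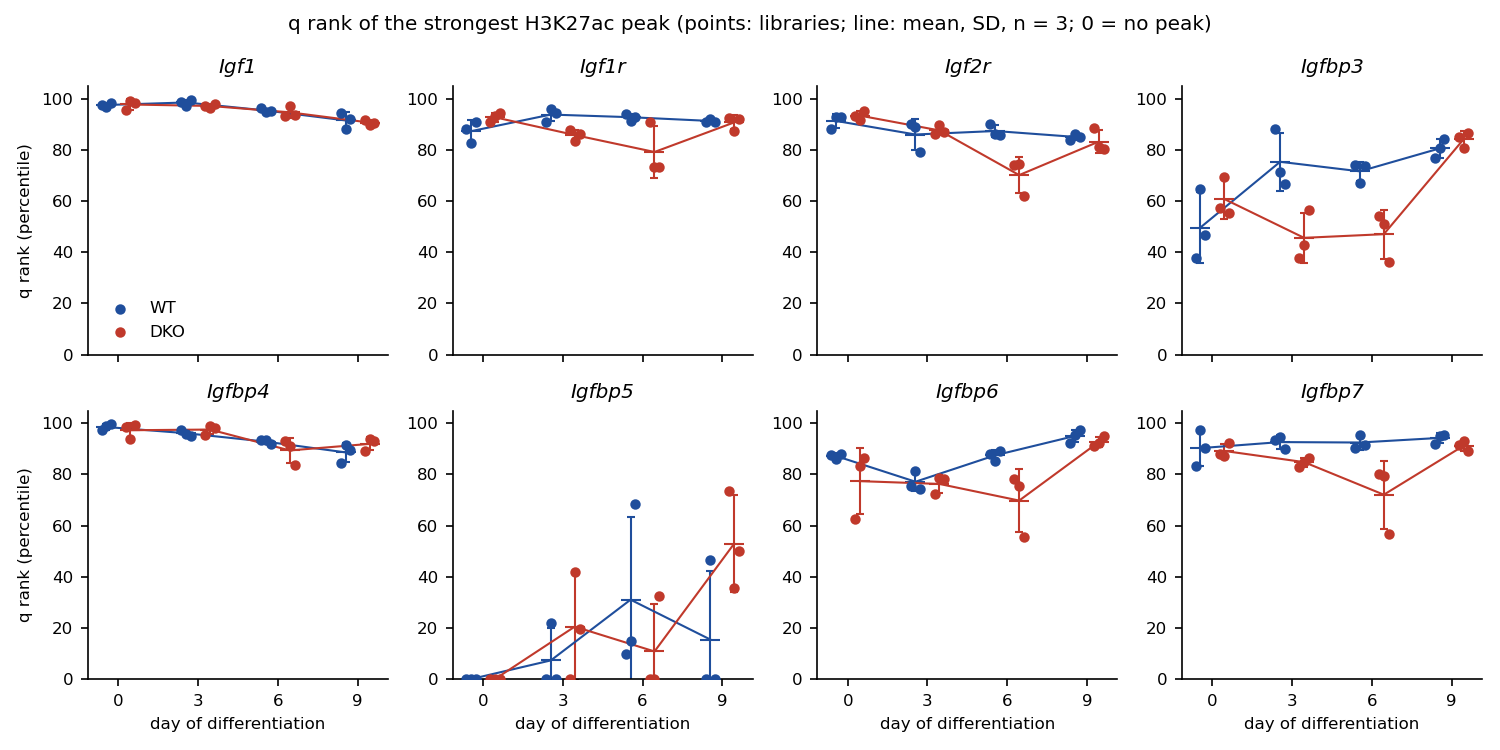
q rank of the strongest peak in percentiles of its own list (vertical axes, 0 for no peak) against day for the 8 IGF genes with peaks, WT in blue and DKO in red. Points are libraries, lines join means of 3 libraries and bars are SDs, which the axis ends at 0. Igf1 and Igfbp4 start near the top in both genotypes and end lower, and Igfbp3 and Igfbp6 end higher than they start.

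The rank of the strongest peak told apart genes that coverage joined. Between day 0 and day 9 the q rank rose for 2 of 8 IGF genes, beside 13.9% of all genes, and fell for 3, beside 8.83%. Igfbp3 rose by 27.1 percentiles and Igfbp6 by 11.6, and Igf1 fell by 6.55, Igfbp4 by 7.63 and Igf2r by 8.22 (adjusted p = 0.0278 each, exact permutation test). In Igfbp4 coverage thus rose while its strongest peak moved down the list. Its q rank was 97.2, 98.8 and 99.7 in WT and 98.5, 94.0 and 99.4 in DKO at day 0, and 84.6, 91.7 and 89.6 in WT and 89.1, 93.9 and 92.9 in DKO at day 9. The 2 days did not overlap within either genotype.

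Igf1 went the same way in rank without a called change in coverage. Its q rank was 97.4, 96.8 and 98.5 in WT and 95.5, 99.3 and 98.5 in DKO at day 0, and 94.4, 88.1 and 92.1 in WT and 91.7, 89.8 and 90.6 in DKO at day 9. The fold of the strongest Igf1 peak over local background was 14.8 to 21.1 in WT, against 15.4 to 20.9 in DKO, on day 0, and 11.7 to 16.2 and 12.6 to 14.0 on day 9. Igfbp6 went the other way, with folds of 9.81 to 10.9 and 5.32 to 10.5 on day 0, and means of 19.4 in WT and 16.1 in DKO on day 9. Folds were not tested.

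Between genotypes over the 4 days, no IGF gene passed in q rank, beside 3.28% of all genes lower in DKO and 0.158% higher. At an unadjusted p under 0.05, 2 IGF genes were lower, beside 19.7% of all genes, and 0 higher, beside 1.82%. Igfbp7 was lower by 8.09 percentiles (adjusted p = 0.0509) and Igfbp6 by 7.70 (adjusted p = 0.0695, both exact permutation tests). Without WT day 3 replicate 3 Igfbp7 passed, at −8.46 percentiles (adjusted p = 0.0474, exact permutation test). The Igfbp7 values at day 6 were 90.3, 95.6 and 91.6 in WT and 80.2, 79.4 and 56.7 in DKO, without overlap.

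Single regions were compared by how many libraries called them. Of 183 IGF regions, 75 could be tested, and 0 passed after adjustment over 71228 regions by the exact conditional test. At an unadjusted p under 0.05, 2 were lower in DKO, beside 4.82% of all regions tested, and 0 higher, beside 0.456%. They were the intronic regions of Igf1r at chr7:68017162-68018440 (p = 0.0200, exact) and of Igfbp7 at chr5:77368957-77370579 (p = 0.0400, exact), which was called in 11 WT and 6 DKO libraries.

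By day, regions called in every WT library and in no DKO library numbered 9 of 183 at day 6, beside 4.55% of all regions, 2 at day 3, beside 0.900%, 0 at day 0, beside 0.594%, and 0 at day 9, beside 0.386%. The reverse was found for 2 at day 9, beside 1.46%, and for 0 at day 0, day 3 and day 6, beside 0.745%, 0.0980% and 0.0390%. The share at day 6 lay near that of all regions. The 9 fell in Igf1 (3), Igf1r (5) and Igfbp7 (1).

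Over the 24 libraries the Spearman correlation of kb was above 0 in all 28 pairs of the 8 marked genes, from 0.0896 between Igfbp4 and Igfbp7 to 0.916 between Igf1r and Igfbp7, with 0.845 between Igf1 and Igfbp4. The libraries share peak number, with which Igf1r correlated at 0.691, Igfbp7 at 0.676, Igfbp4 at 0.302 and Igf1 at 0.266. The genes most like Igf1 were Dcn (0.912), which encodes the matrix proteoglycan decorin, Ssh2 and Csnk1a1 (0.910 each). The genes most like Igf1r were Srrm2, Mbnl2 and Samd4b (0.970, 0.964 and 0.960), and those most like Igfbp7 were Gal3st4, Dap and Zyx (0.971, 0.969 and 0.961). Among those most like Igfbp4 were Pde4d and Fgf10 (0.916 and 0.903), those most like Igf2r were Pcdhgc4, Sfxn5 and Clec2e (0.942, 0.938 and 0.929), those most like Igfbp3 were Tac4, Zfp703 and Kcne4 (0.937, 0.920 and 0.905), and those most like Igfbp6 were Nufip1, Ncaph2 and Abl1 (0.906, 0.887 and 0.883).

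Other genes of the pathway were read from 3 lists. Of 11 carriers, proteases and inhibitors, 11 were tested, 0 differed between genotypes over the 4 days, 3 rose, beside 16.4% of all genes, and 2 fell, beside 14.8%, from day 0 to day 9 (adjusted p under 0.05, exact permutation test), and 10 lay below WT at day 6 without overlap, beside 59.6%. The metalloprotease gene Adam12 rose by 37.2 kb, Htra3 by 3.42 kb and the PAPP-A inhibitor Stc2 by 1.45 kb (adjusted p = 0.0203 each), while the serine protease gene Htra1 fell by 4.99 kb (adjusted p = 0.0203) and Stc1 fell by 0.522 kb (adjusted p = 0.0481, all exact permutation tests). Pappa, which encodes the protease that cuts Igfbp4, was at −16.2 kb in DKO at day 6 without overlap, and its genotype by day term passed (adjusted p = 0.0269 by limma). The median difference of the list from day 0 to day 9 was −0.0180 kb, and 0.0386 kb over all genes tested.

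Of 16 receptor signalling genes, 15 were tested and Insrr, an orphan receptor of the insulin family, had no peak in any library. None differed between genotypes over the 4 days, 9 rose and 1 fell from day 0 to day 9, beside 16.4% and 14.8% of all genes, and 13 of 15 lay below WT at day 6 without overlap, beside 59.6%, with 8 above at day 9, beside 29.3%. The insulin receptor gene Insr rose by 15.1 kb and the forkhead factor gene Foxo3 by 13.4 kb (both adjusted p = 0.0203), and the regulatory subunit gene Pik3r1 by 11.9 kb (adjusted p = 0.0352). Grb14, an adaptor that inhibits the insulin receptor, fell by 1.48 kb (adjusted p = 0.0352, all exact permutation tests). Insr and Igf1r, the related kinase receptors, thus had different values over time: Igf1r was at −1.49 kb from day 0 to day 9 (adjusted p = 0.984, exact permutation test), and at 2.88 kb without DKO day 0 replicate 2 (adjusted p = 0.178, exact permutation test). The difference between the 2 genes was not tested. The median of the list was 3.58 kb from day 0 to day 9 and −0.00342 kb between genotypes.

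Of 8 genes of the growth hormone axis and of mRNA-binding regulators, 7 were tested and Igf2bp1 had no peak in any library. None differed between genotypes over the 4 days, 3 rose and 1 fell from day 0 to day 9, again beside 16.4% and 14.8% of all genes, and 6 of 7 lay below WT at day 6 without overlap, beside 59.6%. The growth hormone receptor gene Ghr rose by 5.87 kb and Igf2bp3 by 1.74 kb, the third being Stat5a, and Igf2bp2, which encodes an mRNA-binding protein that binds Igf2 mRNA, fell by 5.07 kb (adjusted p = 0.0203 each, exact permutation test). The median from day 0 to day 9 was 1.74 kb.

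Markers of other cell types changed with the day beside these results. From day 0 to day 9, 6 of 6 adipocyte and 3 of 5 brown markers rose, beside 16.4% of all genes (adjusted p under 0.05, exact permutation test). By the same test 3 of 4 macrophage and leukocyte and 3 of 4 endothelial markers fell, beside 14.8%. The macrophage and leukocyte markers summed to 18.5 to 20.4 kb in WT, against 22.3 to 45.2 kb in DKO, on day 0, and to 6.12 to 7.88 and 8.86 to 10.3 kb on day 9. The endothelial markers summed to 6.62 to 7.27 and 7.36 to 16.1 kb on day 0, and to 2.69 to 4.32 and 4.11 to 5.72 kb on day 9. Of 3 mural and myofibroblast markers 1 fell, with sums of 4.35 to 6.62 and 5.06 to 12.2 kb on day 0, and of 3.77 to 5.73 and 5.30 to 5.90 kb on day 9. The DKO sums of day 0 include DKO day 0 replicate 2, the library with wide peaks. Its peaks covered 96.4 Mb, against 47.7 and 58.0 Mb in replicates 1 and 3 of that group. The part of peak width in these sums was not tested. Of 4 skeletal muscle markers, Myod1, Myog and Pax7 had no peak in any library, and the fourth summed to 0.640 kb at most. At day 6 the 7 preadipocyte and stromal markers, of which 1 rose and 1 fell from day 0 to day 9, summed to 36.3 to 37.2 kb in WT, against 11.0 to 16.6 kb in DKO, and the adipocyte markers to 73.4 to 78.4 and 44.3 to 69.6 kb. At day 6, 6 of the 7 preadipocyte and stromal markers and 2 of the 6 adipocyte markers lay below WT without overlap, beside 59.6% of all genes. The part of cell makeup in the values of the IGF genes was not tested.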

How the data were processed

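H3K27ac ChIP-seq of 24 libraries (WT and DKO at 4 days, 3 each) was used as deposited peak lists. Per the labels and methods, the authors trimmed reads with cutadapt 1.18, aligned them to mm10 with BWA and called narrow peaks in each library with MACS2 2.1.1.20160309. Each deposited list gives a fold enrichment (a ratio over local background), −log10 p and −log10 q per peak. The pairing of lists with the 16 input libraries, which were not analysed here, is not given in the sources used here, and the lists hold no read totals, so peak number stands for depth and limits what a missing peak shows.

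The genes, lists and comparisons were chosen with earlier results of these data known. Gene windows were the GENCODE M21 span plus 5 kb upstream. Kb under peaks and the q rank of the strongest peak were computed for every protein-coding gene, and genes with peaks in at least 3 libraries were tested. Genotype was permuted within days (160000 relabellings, smallest p 1.25e-05) and day within genotypes (400 relabellings, smallest p 0.005), two-sided, with Benjamini-Hochberg adjustment over all genes and a threshold of 0.05. The genotype by day term was fitted with limma 3.58.1 (R 4.3.3) on log2(kb + 0.5) over all libraries, with the genotype contrast at day 6 added after seeing the data. Peaks overlapping by at least 1 bp were merged into regions, and the number of libraries calling a region was tested by an exact test within days where 3 to 21 libraries called it. Genotype differences at 1 day are counts of genes without overlap. Named genes were the 10 IGF genes, the list genes with the largest changes (up to 3 per list and direction), up to 3 regions per gene that had the highest ranks, an unadjusted p under 0.05 or calls apart between genotypes at 1 day, and the 3 genes most correlated with each IGF gene marked in at least 12 libraries. Pappa, the Igf1 region at chr10:87873713-87874740 and the Airn window were chosen after their values were seen. Of the most correlated genes, 1 is not reported here. The tests were checked on simulated data. Alternatives were stricter peaks, equal numbers of peaks, windows of 250 bp around summits, no upstream part, left-out libraries, other filters and pseudocounts, a replicate block and, added after seeing the data, kb per Mb covered and the library with the fewest peaks left out.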

Additional observations from a re-analysis of the deposited data

Results flagged for a closer look

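The genotype difference in kb under peaks changed with the day, by the genotype by day term of limma, for 6 of 8 IGF genes, beside 36.7% of all genes. With the 20000 highest-ranked peaks of each list it did so for 0 of 7, beside 4.49%. With all peaks, the adjusted p by limma was 0.0242 for Igf1, 0.0108 for Igf1r, 0.000437 for Igf2r, 0.00205 for Igfbp3, 0.00801 for Igfbp6 and 0.0302 for Igfbp7. Igf2r and Igfbp3 had DKO above WT at day 0 and below it at day 6 without overlap, and Igf1 and Igfbp3 had DKO below WT at day 6 and above it at day 9. Of all genes, 18.4% lay above WT at day 0, 59.6% below it at day 6 and 29.3% above it at day 9. Per Mb covered, Igf1 at day 6 and Igfbp3 at day 9 overlapped. For Igfbp4 the DKO libraries lay below WT at day 6 by −1.90 kb and above it at day 9 by 1.07 kb, both without overlap, and this change of direction did not pass the same term (adjusted p = 0.172 by limma). At days 6 and 9 the number of peaks moved in the same way. Its mean was 102083 in WT and 64728 in DKO at day 6, and 102807 and 113163 at day 9. At day 0 it went the other way from Igf2r and Igfbp3, with a mean of 102470 in WT and 88872 in DKO. The part of peak number in these values was not tested.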

How the results depend on the processing

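Igfbp4 at day 6 lay below WT in kb and above WT per Mb covered, both without overlap. Over single genes, 11 of 94 alternatives turned the kb difference between genotypes, 7 of 71 the kb difference from day 0 to day 9, where 10 calls were lost, 4 of 71 the q rank difference between genotypes and 0 of 63 that from day 0 to day 9, where 16 calls were lost. Leaving out all libraries of 1 number leaves 36 relabellings for a pair of days, which cannot pass, so the calls between days lost in those settings were fixed in advance. The causes of the other changes were not tested. In the counts below, the share of all genes is given where it was computed. That share moves with the setting: DKO lay below WT at day 3 in 10.8% of all genes, and in 51.6% without WT day 3 replicate 3. A count without a share is thus not read as particular to the IGF genes.

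With the 20000 highest-ranked peaks per list, the IGF genes with DKO above WT numbered 1 on day 0 and 1 on day 9, and those below WT 2 on day 3 and 5 on day 6. On that setting limma called 1 at day 6, beside 4.79% of all genes, and 0 for genotype by day, beside 4.49%. In kb, 1 fell and 0 rose from day 0 to day 9 and 0 fell from day 0 to day 3, and 1 rose in q rank. The difference between genotypes became 1.30 kb for Igf2r, 0.128 kb for Igfbp3 and 0.436 kb for Igfbp4 and 5.76 percentiles for Igfbp3, and that from day 0 to day 9 became −0.918 kb for Igf1.

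With 250 bp either side of each summit, 1 gene on day 0, 3 on day 6 and 1 on day 9 lay below WT, and 0, 1 and 0 above on days 0, 3 and 9. Limma called 2 at day 6 and 3 for genotype by day, 1 gene rose to day 9 and 0 fell to day 3. Igfbp3 became 0.0629 kb between genotypes, and from day 0 to day 9 Igf1r became 1.85, Igfbp6 −0.00783 and Igfbp7 −0.280 kb. With −log10 q of at least 5, 5 genes lay above WT on day 9, 0 fell and 1 rose to day 3, and the genotype difference was 0.290 kb for Igf2r and 0.150 kb for Igfbp4. Without the upstream 5 kb, 1 rose to day 3.

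By limma, 1 gene was lower over the 4 days, beside 5.36% of all genes, and 5 rose from day 6 to day 9, beside 33.3%. To day 3, 3 fell and 1 rose by limma, beside 43.1% and 3.48%. Per Mb covered, the genes below WT numbered 1, 2, 4 and 3 on the 4 days, beside 10.7%, 7.72%, 14.4% and 13.4% of all genes. Those above numbered 1, 1 and 1 on days 3, 6 and 9, beside 12.3%, 37.7% and 13.5%.

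Leaving out libraries gave 0 to 6 genes below WT on day 3, 0 to 3 below and 3 to 5 above on day 9, 3 to 8 lower at day 6 by limma, and 2 to 7 for genotype by day. It gave 0 to 3 genes that rose to day 9, 0 to 1 that fell and 0 to 1 that rose to day 3, 0 to 1 lower in q rank between genotypes, and 0 to 3 lower and 0 to 2 higher in q rank at day 9. In the counts between days, a value of 0 was fixed in advance where all libraries of 1 number were left out, with 36 relabellings. Leaving out libraries turned the genotype difference of Igf2r (−1.16 to 0.302 kb), Igfbp4 (−0.330 to 0.187 kb) and Igfbp5 (−0.0186 to 0.110 kb) and, in percentiles, of Igf1 (−1.74 to 0.144) and Igfbp4 (−0.426 to 0.451), and the difference from day 0 to day 9 of Igf1r (−4.98 to 3.81 kb) and Igfbp7 (−0.509 to 2.81 kb).

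Replicate numbers did not pair the libraries: the correlations of same-numbered deviations ran from −0.837 to 0.898, and in 3 of 12 pairs the libraries correlated best with their own number. With a replicate block 0 IGF genes passed between genotypes in kb or q rank, and 7 passed for genotype by day by limma. The lists hold no read totals, so a gene near the calling threshold cannot be told from an unmarked one.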
